A study of Arabidopsis thaliana with 18 samples.

Results

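The genes carried by the mitochondrial genome of Arabidopsis thaliana were followed in rosettes of wild type (WT) and era1 plants under 3 nitrate supplies. The members were all rows of the count files whose ID starts with ATMG, which gave 63 of 32744 gene rows. Of these 63 rows, 32 had counts in at least 1 library and 31 had none. Plants on potting soil received 0, 2 or 10 mM nitrate, and whole rosettes were taken when, per the labelled stage, flower buds first become visible. The era1 plants are labelled as a knock-out made by a T-DNA insertion, and the locus printed in that label is AT5G66470. The ERA1 gene itself, AT5G40280, encodes a subunit of protein farnesyltransferase, an enzyme that attaches a lipid to proteins. WT is given with no further allele, and no treatment other than nitrate is named. Each of the 6 combinations of genotype and nitrate had 3 libraries, 18 in all, made by 3′ tag sequencing of poly(A)-selected RNA. The submitters call them biological replicates, but no source used here says if each came from its own plants, so p-values measure the spread between these samples only. The series is titled as a study of adaptation to nitrogen starvation, and the comparisons below ask how far the mitochondrion-encoded rows followed nitrate supply and genotype.

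A plant mitochondrial genome encodes subunits of the respiratory complexes and of ATP synthase, proteins that mature cytochrome c, ribosomal proteins, ribosomal RNAs and transfer RNAs. Most other mitochondrial proteins come from nuclear genes. Messenger RNAs of the nucleus end in a poly(A) tail that gives stability, whereas in plant mitochondria such a tail marks an RNA for degradation. A library selected on poly(A) therefore samples a fraction of mitochondrial RNA, and a share in it reflects capture as well as abundance. Large stretches of mitochondrial DNA have also been copied into the nuclear genome of Arabidopsis, above all into chromosome 2.

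Libraries held 4748044 to 6306900 gene counts, and 20738 to 21486 genes were detected in each. For ERA1, counts ran from 42 to 54 over the WT libraries and from 6 to 17 over the era1 libraries, so the genotypes did not overlap. The rosette leaf markers RBCS1A, RCA and CA1 were at 453 CPM (counts scaled to a common total of gene counts) or more in every library. Of the root markers, the root hair genes SHV2 and EXPA7 never passed 1 count, while PYK10 had 44 to 351 counts. The 3 leaf markers summed to 8811 to 9949 CPM in WT at 0 mM and to 6276 to 6742 at 10 mM, and to 4999 to 5672 and 5553 to 6370 in era1. The 3 root markers summed to 19.7 to 30.4 and 21.4 to 32.9 CPM in WT and to 7.73 to 15.6 and 26.5 to 33.5 in era1. The leaf sum in WT and the root sum in era1 were thus without overlap between 0 and 10 mM. At 0 mM both sums were lower in era1 than in WT, without overlap. At 2 mM the leaf sum was 7227 to 7401 CPM in WT and 6184 to 6585 in era1, and the root sum 33.2 to 40.4 and 24.4 to 62.3. In WT both sums lay higher at 2 than at 10 mM, and neither sum overlapped between 0 and 2 mM in either genotype. The 3 leaf markers did not all move together. At 2 against 10 mM, 2 were called higher and 1 lower in WT (log2 fold changes -0.64 to 0.55) and in era1 (-0.55 to 0.36). In era1 at 0 against 10 mM, 1 was called higher and 2 lower (-1.52 to 0.37). The part of these markers in the results was not tested. Each of the 5 flower markers stayed at or under 20 counts in every library. The 1 that passed the filter on low counts was higher in era1 at 0 and 2 mM than at 10 mM (log2 fold change 1.74 and 1.63). At 10 mM it was lower in era1 than in WT (-2.40), and it was called in no other pair of groups compared. Its part in the results was not tested. LHY, a morning-expressed core clock gene, also differed between the supplies. It was at 23.005 to 37.1 CPM in the 6 libraries at 2 mM. In WT it was at 704 to 728 with 0 mM and 458 to 487 with 10 mM, and in era1 at 765 to 815 and 393 to 484, so no pair of supplies overlapped in either genotype. Its level thus moved with every nitrate comparison, most with those that involve 2 mM, and its part in them was not tested.

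Counts within the set were concentrated in a single row. All ATMG rows together held 227188 counts over the 18 libraries, and ATMG00020 held 75.5% of them. The 10 rows with the largest mean share held 98.6%. After ATMG00020, at 1751 CPM on average, came ATMG00070 at 124, ATMG01380 at 114, ATMG01390 at 97.5, ATMG00090 at 77.5, ATMG01360 at 62.4, ATMG00080 at 26.9, ATMG00580 at 15.5, ATMG00516 at 12.7 and atp4 at 9.09. These are counts not divided by length, so their order is not an order of transcript abundance. Of these 10 rows the sources used here name only atp4, a subunit of the membrane part of ATP synthase, and the other 9 are given by ID.

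The rest of the set was sparse. ATMG00060, ccmFC (ATMG00180, cytochrome c maturation), ATMG00650, ATMG01120, ATMG01170, ATMG00160 and ATMG00510 held 653 down to 253 counts over all libraries. ATMG00110 held 93 and ATMG00665 held 53. Another 13 rows held 1 to 31 counts in all, among them a gene for an OB-fold-like nucleic acid-binding protein (ATMG00560) with 29, the gene part nad2B of complex I with 24, the transfer RNA trnH with 17, the gene part nad1A with 14, the ribosomal protein gene rps12 with 9 and a cytochrome c assembly gene (ATMG00960) with 5. Detection spanned all 18 libraries for 18 rows and 1 to 17 libraries for 14 rows. A row without counts is below 0.0309 CPM over the 18 libraries, or 0.476 to 0.632 in a single library, the level of 3 counts. Such limits cover counting error only.

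Of 20 rows with a name, 12 had no counts. They are the complex III gene cob, the complex IV gene cox3, the complex I gene nad3, the ATP synthase genes atp1, atp8, atp9 and atp6-1, the cytochrome c maturation gene ccmC, the ribosomal protein genes rpl5, rps4 and rps7, and the transfer RNA trnafM. The unnamed rows included 19 without counts. In the RefSeq assembly TAIR10.1, 70.6% of all 50-base stretches of the mitochondrial sequence also occurred, letter for letter, in the nuclear chromosomes, and 70.4% occurred in chromosome 2. For the 10 rows without counts whose name matched a gene of that assembly, 10 had 100% of their 50-base and of their 100-base stretches in the nuclear chromosomes. Among the 4 matched rows with counts, atp4 (901 counts) and trnH (17 counts) had 0% of their stretches copied, whereas ccmFC (563 counts) and rps12 (9 counts) had 100%. Of the 36 protein and ribosomal RNA genes in the mitochondrial annotation of that assembly, 22 had over 90% of their 50-base stretches in the nuclear chromosomes. That number takes in genes that could not be tied to a row of counts, so it does not compare rows with and without counts. Reads that align in several places were put in a separate counter before counting, and its part in the missing counts was not tested. The submitters name TAIR10, whose mitochondrial sequence may differ from that of TAIR10.1, so the copy shares may not hold for the counted reads. Of the AT2G07 rows of chromosome 2, 46 carry a reference note naming an ATMG locus, and these held 61 counts over all 18 libraries.

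Together the ATMG rows took a larger share of gene counts at low nitrate than at 10 mM in both genotypes. In WT the 10 mM libraries had shares of 0.124%, 0.116% and 0.0898%, the 2 mM libraries 0.289%, 0.284% and 0.246%, and the 0 mM libraries 0.262%, 0.285% and 0.272%. In era1 the 10 mM libraries had 0.122%, 0.148% and 0.151%, the 2 mM libraries 0.270%, 0.272% and 0.267%, and the 0 mM libraries 0.296%, 0.306% and 0.383%. Each library at 0 or 2 mM lay above each library of its genotype at 10 mM. The mean share at 0 mM was 2.48 times that at 10 mM in WT (0.273% ± 0.0115 against 0.110% ± 0.0178, SD, n = 3) and 2.34 times in era1 (0.328% ± 0.0478 against 0.140% ± 0.0160). At 2 mM it was 2.48 times that at 10 mM in WT and 1.93 times in era1. Between 0 and 2 mM the WT libraries overlapped, with a ratio of 1.0001, whereas in era1 the libraries at 0 mM lay above those at 2 mM, with a ratio of 1.22. With totals multiplied by the TMM scaling factors that the tests use, that ratio was 1.09 and the libraries overlapped, while the libraries at 10 mM still lay below the others in both genotypes. These shares describe the libraries and carry no test. In bulk rosettes, fewer cells of a type and less RNA per cell cannot be told apart.

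**Figure D1:**
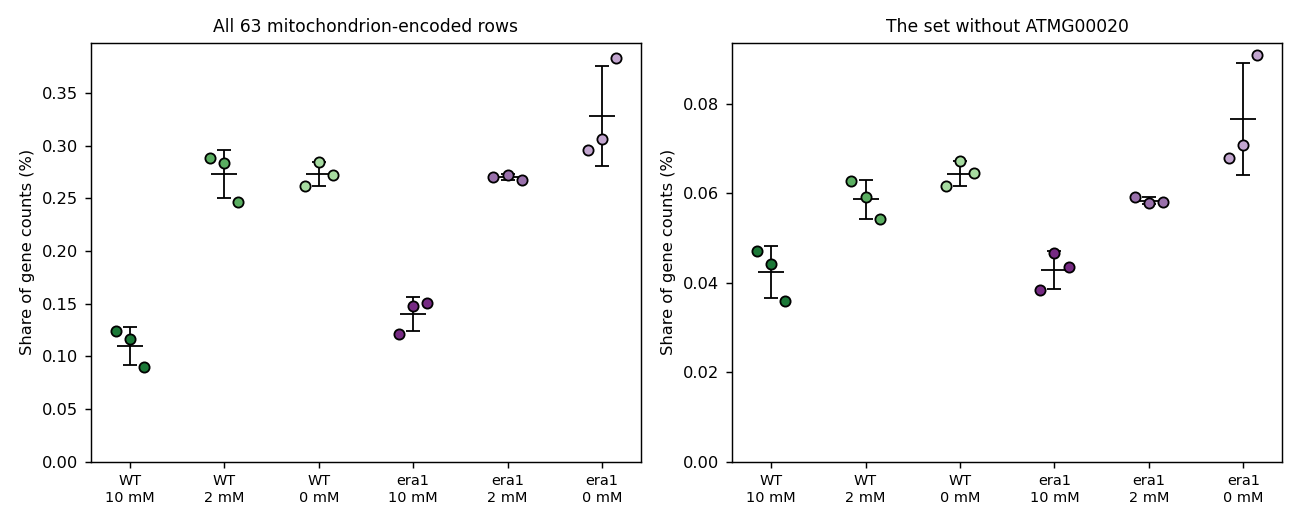
Share of gene counts (%) taken by all 63 mitochondrion-encoded rows (left) and by the set without ATMG00020 (right) in each of the 6 groups. Points are libraries, and bars give the mean ± SD of 3 libraries. On the left the libraries at 10 mM lie between 0.0898% and 0.151% and the others between 0.246% and 0.383%, while on the right the ratio of 0 to 10 mM is 1.52 in WT and 1.78 in era1.

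Much of that rise lay in ATMG00020. Without this row, the set share at 0 mM was 1.52 times that at 10 mM in WT (0.0644% ± 0.00275 against 0.0424% ± 0.00581) and 1.78 times in era1 (0.0765% ± 0.0125 against 0.0429% ± 0.00418). At 2 mM the ratio to 10 mM without it was 1.38 in WT and 1.36 in era1. The composition of the set shifted accordingly. In WT, ATMG00020 made up 61.3% ± 1.13 of ATMG counts with 10 mM nitrate, 78.5% ± 0.608 with 2 mM and 76.4% ± 0.0588 with 0 mM. In era1 it made up 69.3% ± 1.65 at 10 mM, 78.4% ± 0.367 at 2 mM and 76.7% ± 0.397 at 0 mM. Neither genotype had overlap between 10 mM and the lower supplies in this composition.

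Row by row, 17 of the 63 members passed the filter on low counts and were tested, and 46 were not. Of the 17, 12 had at least 10 counts in every library and 5 fell below that in some library. Levels are in CPM (mean ± SD, n = 3), log2 fold changes are given ± SE from edgeR's quasi-likelihood test, and the false discovery rate (FDR) is adjusted over all 18358 tested genes with 0.05 as threshold.

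In WT at 0 mM, 13 of the 17 tested members rose and 0 fell against 10 mM. These changes are relative to all genes. Scaling to the ATMG total instead lowers every member by about the rise of the set, most of which is ATMG00020. On that scale 11 of the 13 were below 0, 7 of them past the threshold. Over all tested genes 26.9% were higher and 26.7% lower in this comparison. The median log2 fold change of the 17 was 0.66, against 0.01 over all tested genes. ATMG00020 had 767, 720 and 539 CPM in the WT libraries at 10 mM and 2002, 2176 and 2079 at 0 mM. Every library at 0 mM was more than 2 times as high as any library at 10 mM. The log2 fold change was 1.65 ± 0.11 (edgeR FDR = 8.9e-12), the largest of the 17 in this comparison. Among members with more counts the next were ATMG00580 at 1.32 ± 0.19 (edgeR FDR = 3.8e-06) and ATMG01360 at 1.25 ± 0.14 (8.8e-08). ATMG00510 was at 1.34 ± 0.37 (edgeR FDR = 0.00325), from 5, 3 and 9 counts at 10 mM to 12, 16 and 20 at 0 mM. It passed the filter on low counts only through groups where it is high, so its call and its place in the order carry little weight. The 13 that rose include it. ATMG01170 was at 1.06 ± 0.36 (edgeR FDR = 0.0152). The lowest of those that rose were ATMG01380 at 0.41 ± 0.11, ATMG00090 at 0.53 ± 0.13, ATMG00516 at 0.55 ± 0.23, ATMG01390 at 0.66 ± 0.13 and ATMG00070 at 0.66 ± 0.10.

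ATMG00070, the second row of the set, illustrates the smaller changes. It had 114, 106 and 90.5 CPM in the WT libraries at 10 mM and 148, 169 and 165 at 0 mM. The groups did not overlap, but the distance between them was much shorter than for ATMG00020. ATMG01360 had 39.4, 29.1 and 22.3 CPM at 10 mM and 68.5, 67.6 and 76.1 at 0 mM. Of the 17, 12 had no overlap between groups in the higher direction and 0 in the lower, where 28.6% and 31.2% of all tested genes were without overlap. In DESeq2 the calls of ATMG00060 (FDR = 0.0603) and ATMG00516 (FDR = 0.0783) were lost. The 4 members that did not pass were ATMG00650 (0.53 ± 0.35), ATMG00160 (-0.33 ± 0.31), ccmFC (-0.57 ± 0.28) and ATMG01120 (-0.61 ± 0.34). Some calls were lost when a single library was left out. That held for ATMG00060 without WT replicate 2 at 0 mM or WT replicate 2 or 3 at 10 mM (FDR up to 0.11), for ATMG01170 without WT replicate 3 at 10 mM (0.0779), for atp4 without WT replicate 2 or 3 at 0 mM or WT replicate 3 at 10 mM (up to 0.177), and for ATMG00516 without any WT library at 10 mM, any era1 library at 10 mM, WT replicate 3 at 0 mM or era1 replicate 2 at 2 mM (up to 0.297).

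At 2 mM against 10 mM in WT, 7 of 17 members rose and 2 fell, where 28.8% of all tested genes were higher and 28.3% lower. ATMG00580 rose most, at 1.77 ± 0.19 (edgeR FDR = 1.6e-08), from 7.88, 6.95 and 5.31 CPM to 25.2, 19.5 and 21.0. ATMG00020 was at 1.74 ± 0.11 (edgeR FDR = 8.2e-13), ATMG01360 at 1.36 ± 0.14, ATMG01390 at 0.71 ± 0.13, ATMG00080 at 0.67 ± 0.14, ATMG00070 at 0.53 ± 0.10 and ATMG00090 at 0.34 ± 0.13. Scaled to the ATMG total, 5 of these 9 called members were below 0 instead of above, 4 of them past the threshold. The exceptions to the rise were ccmFC, which fell from 7.31 ± 3.48 to 2.86 ± 0.262 CPM (-1.28 ± 0.32, edgeR FDR = 0.00137), and ATMG01120 (-0.89 ± 0.37, edgeR FDR = 0.0405). The groups did not overlap for either row, yet ATMG01120 lost its call without any WT library at 10 mM or without WT replicate 1 or 2 at 2 mM, at an FDR of up to 0.121, and in DESeq2, at 0.0854. For ccmFC the counts were 55, 31 and 21 at 10 mM and 14, 16 and 13 at 2 mM. As given above, 100% of its 50-base stretches also occurred in the nuclear chromosomes of TAIR10.1. The part of such copies in its values was not tested. The call of ATMG00090 was lost without WT replicate 3 at 10 mM or WT replicate 1 at 2 mM, at an FDR of up to 0.152.

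In era1 at 0 mM, 12 of 17 members rose and 0 fell against 10 mM. Scaled to the ATMG total, which again lowers all members together, 7 of the 12 were below 0, 4 of them past the threshold. Over all tested genes 27.5% were higher and 28.0% lower. The median of the 17 was 0.68. The largest change was that of atp4, which had 6.83, 4.68 and 8.49 CPM at 10 mM and 20.3, 12.5 and 29.9 at 0 mM (1.52 ± 0.26, edgeR FDR = 2.2e-05). Its libraries at 0 mM spread widely but all lay above those at 10 mM. ATMG00020 followed at 1.25 ± 0.10 (edgeR FDR = 3.2e-10), ATMG01360 at 1.20 ± 0.13 and ATMG00580 at 1.12 ± 0.17. ATMG00020 had 832, 1009 and 1074 CPM at 10 mM and 2276, 2353 and 2922 at 0 mM, with a wide gap between the groups. ATMG00510 was at 1.43 ± 0.30, from 10, 9 and 8 counts at 10 mM to 20, 25 and 33 at 0 mM. It has the same limit from the filter as in WT, and the 12 that rose include it. The smaller changes were those of ATMG00070 (0.88 ± 0.10), ATMG01170 (0.82 ± 0.35), ATMG00080 (0.81 ± 0.14), ATMG00090 (0.68 ± 0.13), ATMG00060 (0.59 ± 0.23), ATMG01380 (0.53 ± 0.11) and ATMG01390 (0.52 ± 0.13). The call of ATMG00060 was lost without era1 replicate 3 at 0 mM or era1 replicate 1 or 2 at 10 mM, at an FDR of up to 0.191, and in DESeq2, at 0.0955. That of ATMG01170, with an FDR of 0.0483, was lost without any of 11 of the 18 libraries, at up to 0.272, in DESeq2 (0.113) and with a replicate block (0.0568).

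At 2 mM against 10 mM in era1, 9 of 17 members rose and 0 fell, where 25.5% of all tested genes were higher and 26.5% lower, and on the scale of the ATMG total 7 of the 9 were below 0, 3 of them past the threshold. ATMG00020 was at 1.16 ± 0.10 (edgeR FDR = 1.2e-09), with 2112, 2146 and 2090 CPM at 2 mM, a narrow range above all libraries at 10 mM. ATMG00580 was at 1.06 ± 0.17, ATMG00510 at 0.98 ± 0.32, atp4 at 0.88 ± 0.28 and ATMG01360 at 0.83 ± 0.14. ATMG00510, counted among the 9 that rose, has the same limit from the filter as in WT. The call of ATMG00510 was lost without era1 replicate 2 at 2 mM (FDR = 0.0802 in edgeR) and in DESeq2 (FDR = 0.063), and that of atp4 without era1 replicate 2 at 10 mM (FDR = 0.0676 in edgeR). At the low end were ATMG00070 (0.67 ± 0.10), ATMG00080 (0.66 ± 0.14), ATMG00090 (0.61 ± 0.13) and ATMG01390 (0.47 ± 0.13).

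**Figure D2:**
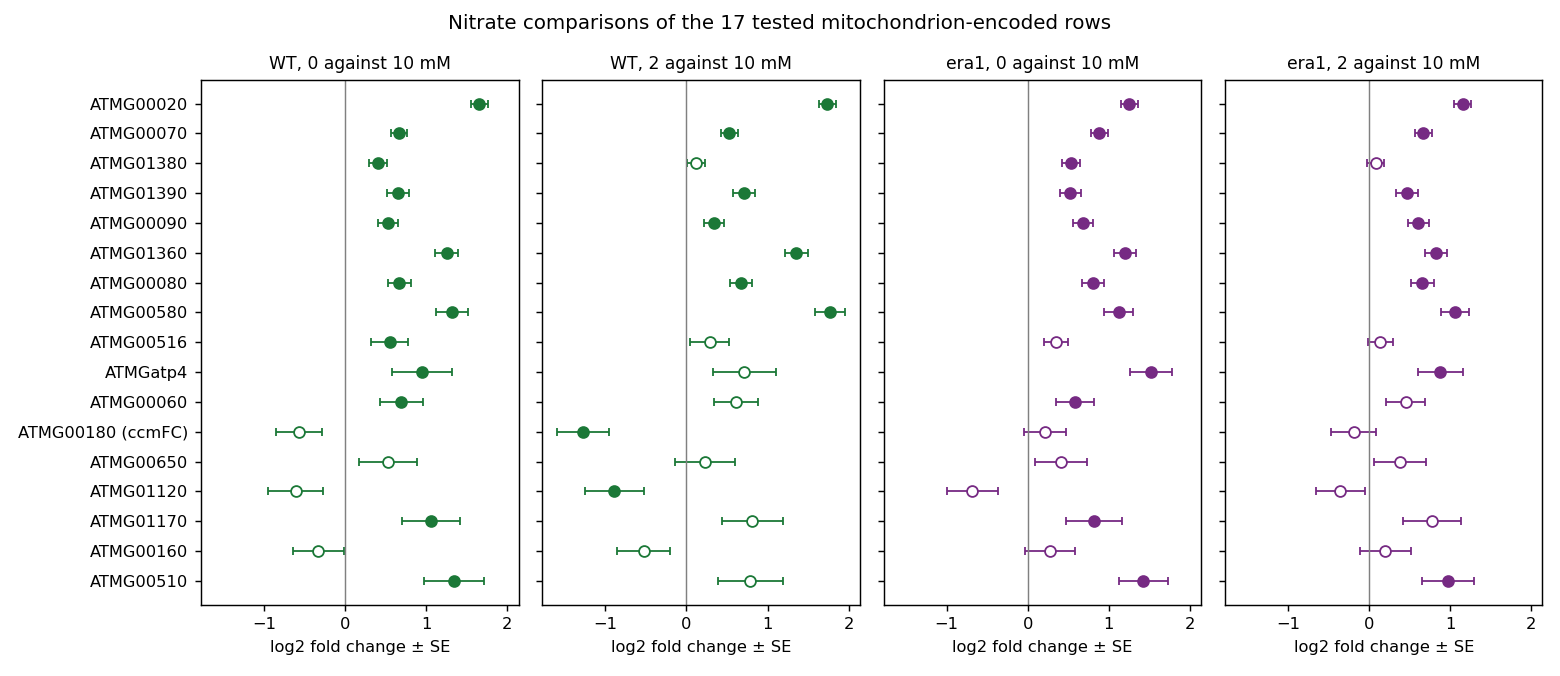
Log2 fold change ± SE of the 17 tested mitochondrion-encoded rows, ordered by mean level, for 0 and 2 mM against 10 mM in WT (green) and era1 (purple). Filled points passed an FDR of 0.05 and open points did not; ATMG00020 lies between 1.16 and 1.74, and ccmFC (ATMG00180) and ATMG01120 in WT at 2 mM are the filled points below 0. Values are relative to all genes, and 11, 5, 7 and 7 of the filled points, in the order of the panels, are below 0 when counts are scaled to the ATMG total, which lowers all members together; 7, 4, 4 and 3 of these are past the threshold on that scale.

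Between 0 and 2 mM few members differed. In WT, ATMG01380 was higher at 0 mM (0.28 ± 0.11, edgeR FDR = 0.038) and ATMG00580 lower (-0.46 ± 0.16, edgeR FDR = 0.022), so 1 of 17 was higher and 1 lower where 20.3% and 22.1% of all tested genes were. Both calls were lost without WT replicate 1 at 2 mM, and also, for ATMG01380, without WT replicate 2 at 0 mM or 3 at 2 mM (FDR up to 0.101) and, for ATMG00580, without WT replicate 1 or 3 at 0 mM (up to 0.161) and in DESeq2 (0.0684). In era1, ATMG01380 (0.45 ± 0.11, edgeR FDR = 8.5e-04), ATMG01360 (0.37 ± 0.13, 0.017) and atp4 (0.64 ± 0.23, 0.0244) were higher at 0 mM, 3 of 17 against 23.7% of all tested genes, and 0 were lower against 26.0%. Without era1 replicate 3 at 0 mM the calls of ATMG01360 and atp4 were lost, as they were without era1 replicate 1 and replicate 3 at 2 mM respectively, at an FDR of up to 0.138 and 0.323. DESeq2 also did not call atp4 (FDR = 0.076). ATMG00020 was at -0.08 ± 0.10 in WT and 0.09 ± 0.10 in era1 and passed the test in neither.

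Between the genotypes the members that differed most were ATMG00516 and atp4, both higher in era1. ATMG00516 had 5.66, 4.84 and 4.91 CPM in WT and 16.9, 16.6 and 16.8 in era1 at 10 mM. At 2 mM it had 6.91, 6.44 and 4.60 in WT and 20.3, 17.6 and 16.3 in era1, and at 0 mM 6.73, 5.69 and 9.65 in WT and 21.6, 19.6 and 28.3 in era1. The highest WT library, at 9.65, stayed below the lowest era1 library, at 16.3. Against WT, the log2 fold change in era1 was 1.66 ± 0.20 with 10 mM (edgeR FDR = 6.6e-07), 1.51 ± 0.19 with 2 mM (1.7e-06) and 1.45 ± 0.17 with 0 mM (1.4e-07). These calls remained whichever single library was left out, and the values stayed positive when scaled to the ATMG total.

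For the ATP synthase gene atp4, the WT libraries had 4.04, 4.21 and 1.84 CPM with 10 mM nitrate, 5.28, 5.66 and 4.80 with 2 mM, and 3.999, 7.21 and 7.86 with 0 mM. At each supply the era1 libraries, given above for 10 and 0 mM and at 13.03, 12.6 and 10.5 at 2 mM, lay above the WT libraries. The log2 fold change passed the test at 2 mM (1.11 ± 0.30, edgeR FDR = 0.00812) and 0 mM (1.52 ± 0.26, edgeR FDR = 3.6e-05) and not at 10 mM (0.94 ± 0.37, edgeR FDR = 0.0544). A test of the difference between supplies is given with the interactions below.

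ATMG00070 moved the other way. In era1 it had 63.9, 81.2 and 77.0 CPM with 10 mM nitrate, 115, 114 and 116 with 2 mM, and 127, 159 and 160 with 0 mM, below WT on average at each supply. The groups were apart at 10 and 2 mM, where WT had 155, 145 and 127, and overlapped at 0 mM. The log2 fold change was -0.53 ± 0.11 at 10 mM (edgeR FDR = 5.0e-04), -0.39 ± 0.10 at 2 mM (0.00602) and -0.31 ± 0.10 at 0 mM (0.0122). At 0 mM the mean CPM, 148 in era1 and 161 in WT, lay closer together. The test also uses the TMM factors, 1.100 to 1.115 in era1 and 0.964 to 0.970 in WT at 0 mM. Scaled to the ATMG total the values were -0.84 at 10 mM (edgeR FDR = 2.2e-05), -0.29 at 2 mM (0.231) and -0.37 at 0 mM (0.0424). Without WT replicate 1 at 2 mM the FDR there was 0.0518, and without era1 replicate 1 at 0 mM it was 0.081 at that supply.

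Over all 17, era1 was higher in 2 and lower in 2 at 10 mM, where 15.4% and 14.3% of all tested genes were. It was higher in 2 and lower in 1 at 2 mM, where 10.9% and 11.1% of all tested genes were, and higher in 3 and lower in 1 at 0 mM, where 24.5% and 24.6% were. The remaining calls were ATMG00020, higher in era1 at 10 mM (0.48 ± 0.10, edgeR FDR = 0.00109), ATMG00090, lower at 10 mM (-0.39 ± 0.13, 0.0257), and ATMG01380, higher at 0 mM (0.34 ± 0.11, 0.00976). The call of ATMG00090 was lost at 10 mM without WT replicate 1 or 2 or era1 replicate 1 or 3, at an FDR of up to 0.131, and that of ATMG01380 without era1 replicate 3 at 0 mM, at an FDR of 0.122. At the level of the set, the mean share in era1 was 1.27 times that of WT at 10 mM and 0.989 times at 2 mM, with overlap at both, and 1.20 times at 0 mM, without overlap. The TMM factors were 1.100 to 1.115 in era1 and 0.964 to 0.970 in WT at 0 mM, and with totals multiplied by them the ratio there was 1.05, with overlap. Without ATMG00020 the ratio at 10 mM was 1.01.

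**Figure D3:**
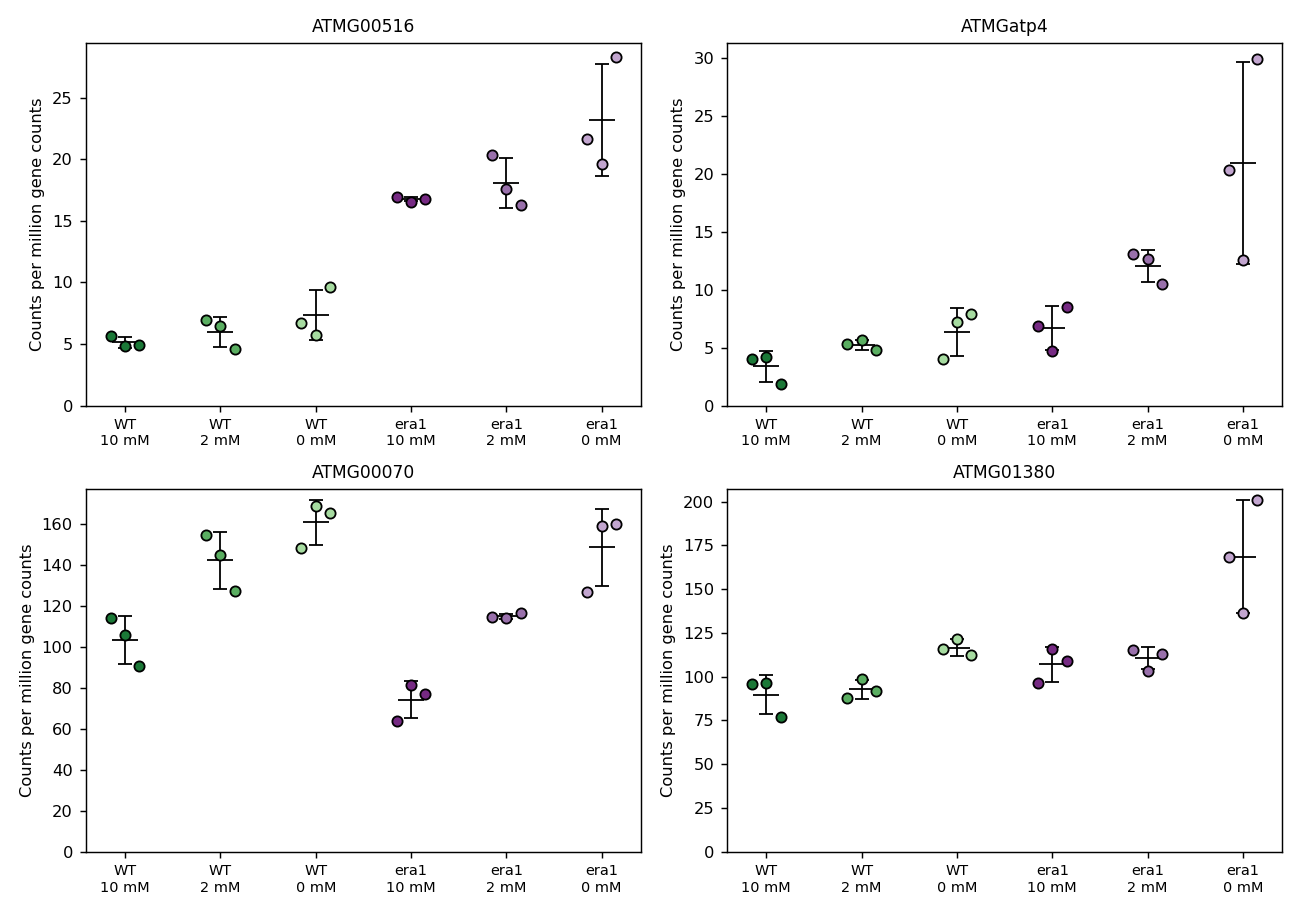
Level in CPM of ATMG00516, atp4, ATMG00070 and ATMG01380 in each of the 6 groups. Points are libraries, and bars give the mean ± SD of 3 libraries. ATMG00516 lies between 4.60 and 9.65 in WT and between 16.3 and 28.3 in era1, while ATMG00070 is lower in era1 than in WT at 10 and 2 mM.

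In the test of whether the nitrate difference differed between genotypes, relative to all genes, ATMG00020 alone among the 17 passed the threshold. Its log2 fold change of 0 against 10 mM was smaller in era1 by 0.40 ± 0.15 (-0.40, edgeR FDR = 0.0344), and that of 2 against 10 mM by 0.58 ± 0.15 (-0.58, edgeR FDR = 0.00792). At 2 mM, ATMG00580 (-0.71 ± 0.26, edgeR FDR = 0.0694), ATMG01360 (-0.53 ± 0.20, 0.0742) and ccmFC (1.09 ± 0.42, 0.0824) were close to the threshold and not called. Of all tested genes, 15.6% had a positive and 19.3% a negative interaction at 0 mM, and 7.71% and 8.08% at 2 mM. The first of these calls was lost without WT replicate 2 or 3 or era1 replicate 1 or 2 at 0 mM, or without WT replicate 3 or era1 replicate 2 or 3 at 10 mM, at an FDR of up to 0.125. Scaled to the ATMG total, neither value of ATMG00020 passed (FDR = 0.556 and 0.547 in edgeR). On that scale ccmFC had a positive interaction at 0 mM (0.99, edgeR FDR = 0.0443) and at 2 mM (1.46, edgeR FDR = 0.00817), and ATMG00090 at 2 mM (0.67, edgeR FDR = 0.0274). For ATMG00516 and atp4 no difference of the genotype effect between supplies passed the test, which does not show that the effects were alike.

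Other shares of the libraries were also higher at the lower supplies than at 10 mM. Chloroplast-encoded rows (133 rows whose ID starts with ATCG) took 1.98% ± 0.132 of WT gene counts with 10 mM nitrate, 3.68% ± 0.142 with 2 mM and 3.86% ± 0.173 with 0 mM. In era1 they took 2.03% ± 0.341, 3.17% ± 0.155 and 2.93% ± 0.279. The ratio of 0 to 10 mM was 1.95 in WT and 1.44 in era1 for these rows. In era1 between 0 and 2 mM, and between genotypes at 0 mM, their mean share moved against the mitochondrial one. The ratio of 0 to 2 mM in era1 was 0.923, against 1.22 for the ATMG rows. The ratio of era1 to WT at 0 mM was 0.758, against 1.20. With totals multiplied by the TMM factors these ATMG ratios were 1.09 and 1.05, with overlap. Between 0 and 2 mM in WT the ratio was 1.05 for the ATCG rows, against 1.0001. For era1 to WT it was 1.02 against 1.27 at 10 mM and 0.861 against 0.989 at 2 mM. In WT, 83 of 84 tested ATCG rows rose at 0 against 10 mM and 0 fell. In era1, 63 of 84 rose and 0 fell. Over all tested genes, 26.9% were higher and 26.7% lower in WT, and 27.5% and 28.0% in era1. Reads with several alignments took 2.15% ± 0.222 of WT read records with 10 mM nitrate and 4.97% ± 0.245 with 0 mM, and 2.52% ± 0.261 and 4.74% ± 0.519 of those of era1. The part of these shares in the mitochondrial result was not tested.

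Relative to the chloroplast-encoded rows the mitochondrial share still varied. In WT there were 0.0553 ± 0.00605 ATMG counts per ATCG count with 10 mM nitrate, 0.0743 ± 0.00818 with 2 mM and 0.0707 ± 0.000999 with 0 mM. In era1 the values were 0.0699 ± 0.0108, 0.0853 ± 0.00486 and 0.112 ± 0.00569. The libraries of era1 at 0 mM, from 0.108 to 0.118, lay above all others. The AT2G07 rows, most of whose counts belong to rows without an ATMG note, took 0.0224% to 0.0296% of gene counts in every library.

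**Figure D4:**
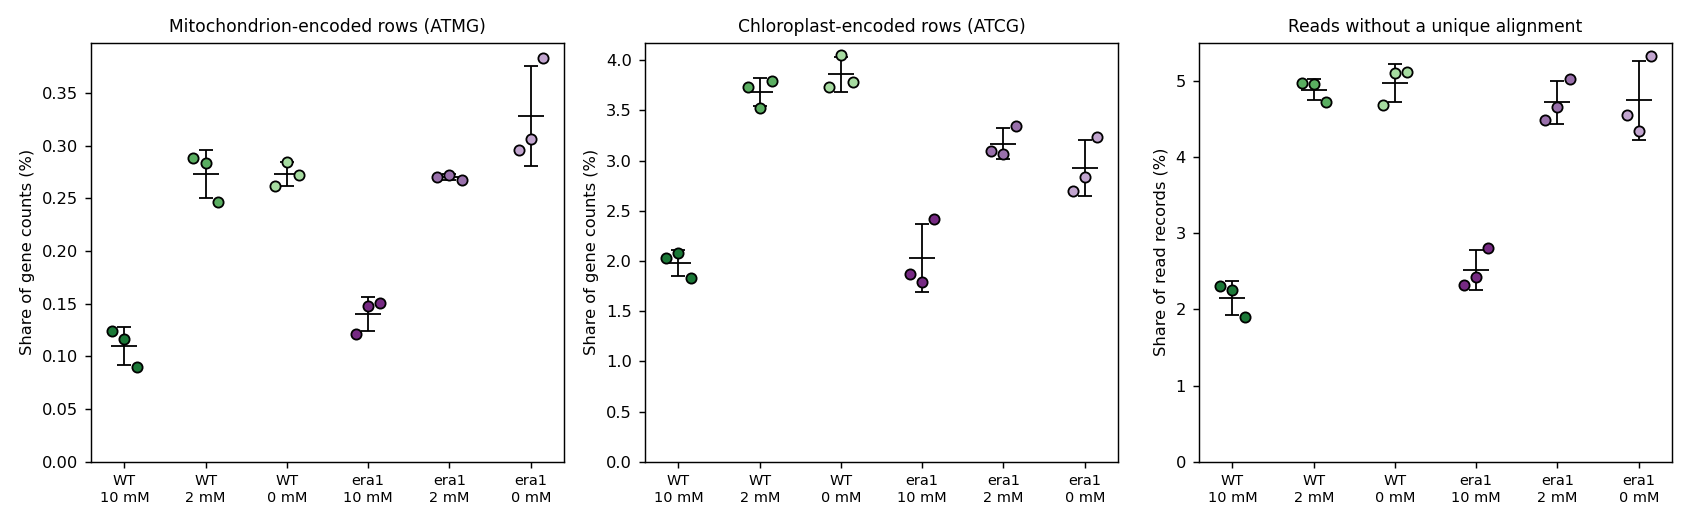
Share of gene counts (%) of mitochondrion-encoded rows (left) and chloroplast-encoded rows (middle), and share of read records (%) of reads without a unique alignment (right), in each of the 6 groups. Points are libraries, and bars give the mean ± SD of 3 libraries. In all 3 panels the libraries at 10 mM are lowest, with 1.80% to 2.42% for chloroplast rows and 1.89% to 2.81% for reads with several alignments.

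Nuclear genes for the same organelle moved in both directions. Of 39 tested nuclear subunits of the respiratory complexes, 16 rose and 6 fell in WT at 0 against 10 mM (median log2 fold change 0.13), where 26.9% of all tested genes were higher and 26.7% lower. The largest changes were CYTC-2, one of the cytochrome c genes (1.56 ± 0.13, edgeR FDR = 6.7e-10, from 21.7 ± 4.09 to 62.7 ± 9.69 CPM), AT3G15640 (1.38 ± 0.12) and the succinate dehydrogenase subunits SDH2-2 (1.18 ± 0.15) and SDH1-1 (1.11 ± 0.09). In era1 the same comparison gave 8 higher and 13 lower (median -0.04), where 27.5% of all tested genes were higher and 28.0% lower, so neither count is far from the background. Of 10 tested genes of alternative respiration, 3 rose and 2 fell in WT, near the same background, and 5 rose and 3 fell in era1. AOX1A, the alternative oxidase that bypasses the cytochrome path, rose from 24.4 ± 2.05 to 54.5 ± 3.06 in WT (1.19 ± 0.12, edgeR FDR = 8.1e-09) and from 30.6 ± 4.21 to 138 ± 18.0 in era1 (2.05 ± 0.11, edgeR FDR = 3.7e-14). The rise was larger in era1 by 0.86 ± 0.16 (edgeR FDR = 1.6e-04). The alternative NADH dehydrogenases NDB2 (0.65 ± 0.12) and NDA2 (0.60 ± 0.22) also rose in WT and NDA1 fell (-0.55 ± 0.08).

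Nuclear genes that express and maintain the mitochondrial genome went the other way from the ATMG rows in WT. Of 29 tested, 0 rose and 15 fell at 0 against 10 mM (median -0.68), where 26.9% and 26.7% of all tested genes did. In era1, 3 rose and 8 fell, against 27.5% and 28.0%. The largest change was in AT5G14580, a polynucleotide phosphorylase, which degrades RNA from its tailed end. The WT libraries had 83, 65 and 58 counts with 10 mM nitrate, 19, 39 and 26 with 2 mM, and 14, 22 and 14 with 0 mM. Those of era1 had 39, 48 and 29 with 10 mM, 29, 25 and 27 with 2 mM, and 30, 35 and 47 with 0 mM. In WT the libraries at 10 mM lay above all others, while in era1 those at 10 and 0 mM overlapped. The log2 fold change of 0 against 10 mM was -2.17 ± 0.25 in WT (edgeR FDR = 7.7e-08) and -0.14 ± 0.23 in era1 (FDR = 0.635), and the interaction was 2.03 ± 0.34 (edgeR FDR = 5.8e-05). The ATMG share rose in both genotypes between the same libraries, and the part of this gene in it was not tested.

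The other large changes of that list in WT were AT1G30680 (-1.60 ± 0.13), MSH1, which guards the organelle genomes against recombination (-1.29 ± 0.25), and RIP1, an RNA editing factor (-1.03 ± 0.09). The phage-type RNA polymerases moved less than these in WT, whereas in era1 they had the highest values of the 29. MGP3, the mitochondrial polymerase (AT1G68990), was at 26.7 ± 2.78 CPM at 10 mM and 25.5 ± 0.777 at 0 mM in WT (-0.04 ± 0.11, FDR = 0.799), and at 20.3 ± 1.98 and 38.2 ± 3.62 in era1 (0.79 ± 0.11, edgeR FDR = 1.5e-06). AT5G15700, the polymerase shared by both organelles, fell in WT (-0.68 ± 0.20, edgeR FDR = 0.00656) and rose in era1 (0.77 ± 0.18, edgeR FDR = 7.5e-04), with an interaction of 1.45 ± 0.27 (edgeR FDR = 1.7e-04). Of 6 mitochondrial carriers and chaperones, 1 rose and 4 fell in WT, against 26.9% and 26.7% of all tested genes, and 1 rose and 4 fell in era1, against 27.5% and 28.0%. In WT the members that fell were the ADP/ATP carrier gene AAC3 at -1.46 ± 0.11, the outer membrane channel gene VDAC1 at -0.57 ± 0.08 and the chaperone genes HSP60 (-0.48 ± 0.10) and mtHsc70-1 (-0.47 ± 0.08).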

How the data were processed

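RNA was measured in 18 rosette libraries, 3 for each combination of genotype and nitrate supply, grouped by their titles. Libraries were made from poly(A)-selected RNA with a stranded 3′ tag kit, per the labels' protocols. TopHat2 and TAIR10 are named per the submitters' processing notes, and no source used here gives the counting program, its strand setting or the annotation. Values of genes that overlap others, on either strand, are thus uncertain. Per gene, the authors deposited unnormalized read counts. Each library also has 5 summary counters that belong to no gene and stayed outside all totals. Reads outside genes made up 3.75% to 5.72% of read records, and those with several alignments 1.89% to 5.33%. Every pair of libraries within a group differed by more than sampling noise (chi-square per degree of freedom 1.50 to 4.44 over genes with at least 20 counts).

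The counts went into edgeR 4.0.16 (quasi-likelihood test, R 4.3.3), with trimmed mean of M values (TMM) scaling, filterByExpr by group (minimum count 10, minimum total 15), 1 model of the 6 groups, and Benjamini-Hochberg adjustment over 18358 genes within each of 11 contrasts. The scripts were tested on simulated data. Alternatives were RLE scaling, DESeq2 1.42.0, no filter, a replicate block, scaling to nuclear or to ATMG totals, omission of the libraries at 2 mM, omission of each library and, for the set share, totals multiplied by the TMM factors (chosen after seeing the data). Replicate numbers were not treated as pairs, because same-numbered libraries showed little correlation. Shares and ratios of shares are descriptions.

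Named with values were the 10 rows with the largest mean share, up to 5 of the highest and 5 of the lowest changes past the threshold per comparison, rows against the main direction, and up to 4 genes of each nuclear list, with AOX1A and the polymerases always. Other rows are named to account for every member. The members and lists were chosen with earlier results of these data known. IDs are printed without the suffix that the files add. Names were given to 20 of 63 rows, from the row ID or from notes in the RefSeq annotation of TAIR10.1. That annotation lists mitochondrial genes under other IDs, so the other 43 rows carry no name or role here, levels per length were not computed, and no coordinates or sequences are given. Of the rows that were to be named always, atp1 and cob had no counts, and matR, mttB, cox1, nad9, rrn26 and rrn18 could not be tied to an ID. An alternative for the set share was planned without the ribosomal RNAs. It leaves out ATMG00020, ATMG01380 and ATMG01390, which hold 84.6% of ATMG counts, but the sources used here tie no role to these IDs. Of 101 nuclear and marker list genes, 101 matched the files.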

Additional observations from a re-analysis of the deposited data

Results flagged for a closer look

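ATMG00020 was singled out because its response to nitrate differed between the genotypes in the test of the difference itself. The log2 difference of era1 minus WT in the change from 10 to 0 mM was -0.404 (edgeR FDR = 0.0344), and in the change from 10 to 2 mM it was -0.58 (edgeR FDR = 0.00792). At 10 mM the row stood at 675 ± 120 CPM in WT and 972 ± 126 in era1 (SD, n = 3), while at 2 mM it stood at 2143 ± 190 and 2116 ± 28.2 and at 0 mM at 2085 ± 87.1 and 2517 ± 353. The genotypes thus differed at 10 mM (0.48 ± 0.10) and the test was not passed at 2 mM (-0.10 ± 0.10) or 0 mM (0.08 ± 0.10). The largest FDR without a single library was 0.125 for the first value. Relative to the ATMG total the values were -0.17 (FDR = 0.556) and -0.18 (FDR = 0.547). Other members had values of like size at 2 mM that did not pass, relative to all genes. They were ATMG00580 (-0.71, edgeR FDR = 0.0694), ATMG01360 (-0.53, 0.0742) and ccmFC (1.09, 0.0824).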

How the results depend on the processing

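Of 187 combinations of a tested member and a contrast, 61 passed the threshold. With their direction, 61 of these 61 were kept with RLE scaling, with no filter on low counts and with scaling to nuclear genes, 60 with a replicate block and 53 with DESeq2. Without the libraries at 2 mM 34 of the 34 that could be fitted were kept. When each library was left out in turn, 19 of the 61 lost their call without at least 1 library. Replicate numbers were not treated as pairs. Deviations of same-numbered libraries correlated over 0.1 in 1 of 45 pairs (-0.10 to 0.14), 4 of 18 libraries correlated best with their own number, and the replicate block left 60 of 61 calls. Low correlation does not show that same-numbered libraries were grown or processed apart. DESeq2 called 1 member lower in WT at 2 against 10 mM and 0 lower in WT at 0 against 2 mM. With no filter, 2 were higher in WT at 0 against 2 mM, 2 were lower in era1 against WT at 0 mM, and the interaction at 2 mM had 1 positive and 2 negative.

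Scaling to the ATMG total, of which ATMG00020 is the greater part, lowers all members together and kept 12 of the 61. Higher and lower calls became 1 and 11 in WT at 0 against 10 mM, 1 and 11 at 2 against 10 mM, 0 and 0 at 0 against 2 mM, 0 and 9 in era1 at 0 and at 2 against 10 mM, and 0 higher in era1 at 0 against 2 mM. For era1 against WT 1 was higher at 10 mM and 0 lower at 2 mM, and the interactions had 1 positive and 0 negative at 0 mM and 2 and 0 at 2 mM. In WT at 0 against 10 mM the log2 fold change turned to -0.65 for ATMG00060, -0.68 for ATMG00070, -0.67 for ATMG00080, -0.82 for ATMG00090, -0.79 for ATMG00516, -0.017 for ATMG00580, -0.80 for ATMG00650, -0.27 for ATMG01170, -0.073 for ATMG01360, -0.94 for ATMG01380, -0.69 for ATMG01390 and -0.38 for atp4. At 2 against 10 mM in WT it turned to -0.77 for ATMG00060, -0.86 for ATMG00070, -0.71 for ATMG00080, -1.05 for ATMG00090, -1.10 for ATMG00516, -1.14 for ATMG00650, -0.017 for ATMG01360, -1.26 for ATMG01380 and -0.67 for ATMG01390. In era1 at 0 against 10 mM it turned to -0.52 for ATMG00060, -0.22 for ATMG00070, -0.30 for ATMG00080, -0.43 for ATMG00090, -0.85 for ATMG00160, -0.90 for ccmFC, -0.78 for ATMG00516, -0.70 for ATMG00650, -0.29 for ATMG01170, -0.58 for ATMG01380 and -0.61 for ATMG01390. In era1 at 2 against 10 mM it turned to -0.53 for ATMG00060, -0.31 for ATMG00070, -0.32 for ATMG00080, -0.38 for ATMG00090, -0.78 for ATMG00160, -0.0023 for ATMG00510, -0.85 for ATMG00516, -0.15 for ATMG01360, -0.90 for ATMG01380, -0.52 for ATMG01390 and -0.11 for atp4.

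The log2 ratio of the set share at 0 to 10 mM in WT was 1.31, and 0.60 without ATMG00020, 0.66 without ATMG00020, ATMG01380 and ATMG01390, and 1.12 with the AT2G07 rows added. Without ATMG00020, and without those 3 rows, it was 0.47 and 0.54 in WT at 2 against 10 mM, 0.13 and 0.12 in WT at 0 against 2 mM, 0.84 and 0.96 in era1 at 0 against 10 mM, 0.44 and 0.59 in era1 at 2 against 10 mM, and 0.015 and -0.12 in era1 against WT at 10 mM. The cause of these shifts is the rows left out or added. With totals multiplied by the TMM factors, an alternative chosen after seeing the data, it was 0.13 in era1 at 0 against 2 mM and 0.072 in era1 against WT at 0 mM.

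With each library left out in turn, the log2 ratio ranged over 1.19 to 1.41 in WT at 0 and at 2 against 10 mM, -0.07 to 0.04 at 0 against 2 mM, 1.10 to 1.30, 0.86 to 1.004 and 0.16 to 0.35 for the same comparisons in era1, and 0.22 to 0.44, -0.08 to 0.03 and 0.14 to 0.34 for era1 against WT at 10, 2 and 0 mM. Counts of members higher ranged over 9 to 13 and lower over 0 to 1 in WT at 0 against 10 mM, 6 to 8 and 1 to 2 at 2 against 10 mM, and 0 to 1 in both directions at 0 against 2 mM. In era1 they were 10 to 13 and 0 to 1, 8 to 11 and 0, and 1 to 4 and 0. For era1 against WT they were 2 to 3 and 1 to 2 at 10 mM, 2 to 3 and 0 to 1 at 2 mM, and 2 to 4 and 0 to 3 at 0 mM. The interactions had 0 to 1 positive and 0 to 2 negative at 0 mM and 0 to 1 and 1 to 2 at 2 mM. Rows under 10 counts in some library (5 of 17 tested) have the widest errors, and 46 rows were too sparse to test.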
